A study of Mus musculus with 2 samples.

Results

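The gene set described here holds the proteins that neutrophils pack into granules or secrete, with their inhibitors and a few proteins bound up with granule contents. It was listed by gene name with no threshold on measured values, although earlier results of these data were known when it was drawn up, and comprised 37 genes, all of which were found among the 55536 gene entries of the tables and the 22015 nuclear protein-coding genes used as background. The RNA came from primary neutrophils of mouse peripheral blood, from adult C57BL/6J mice 5 to 6 weeks old of unrecorded sex. Total RNA sequencing gave 2 libraries of a single group, replicate 1 and replicate 2, with no treatment, genotype or time to compare. The labels call the libraries biological replicates but give both the same donor label, so the spread between them may be technical, and every comparison below is a description of levels in these 2 libraries.

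Neutrophil granules form in sequence as the cell matures in the bone marrow. The azurophil, specific and gelatinase kinds are each filled mainly with what the cell transcribes at that stage. Azurophil granules, loaded first with myeloperoxidase and the serine proteases, are followed by specific granules with lactoferrin and lipocalin, and then by gelatinase granules and secretory vesicles that hold matrix metalloproteinases and membrane receptors. The protein stays in the granule until the cell is activated, long after the corresponding mRNA may have gone, so the transcripts of a circulating neutrophil and its granule contents are different quantities. The genes were grouped here as azurophil (6), specific (9), gelatinase and secretory (9), protease inhibitors (5) and other (8). A protein can occur in more than one granule type, and lysozyme is an example. Lyz2, Hp and Cfp were placed under gelatinase and secretory. Class values below depend on such choices, and no other grouping was run.

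Transcripts of most specific, gelatinase and secretory, inhibitor and other genes were detected in the blood neutrophil libraries. Markers of other cells were present there too, as given below, and which cells carried these transcripts was not tested. Those of the azurophil genes had few or no reads. A gene was counted as detected at 1 TPM or more (the length-corrected share of all transcripts, in parts-per-million) in both libraries, and 23 of the 37 genes were, against 34.9% of nuclear protein-coding genes. By class, 0 of 6 azurophil genes, 6 of 9 specific, 6 of 9 gelatinase and secretory, 4 of 5 inhibitor and 7 of 8 other genes were detected. The class median of log2(TPM + 1) was 0.01 ± 0.02 for azurophil genes (SD, n = 2, as for every SD here), 1.56 ± 0.27 for specific, 3.81 ± 0.15 for gelatinase and secretory, 4.46 ± 0.08 for inhibitors and 3.83 ± 0.01 for the others. Over all 37 genes it was 2.26 ± 0.13, and over nuclear protein-coding genes 0.16 ± 0.01. In bulk RNA, a lower level from fewer expressing cells and one from less RNA per cell cannot be told apart. Of the remaining 14 genes, 13 were under 1 TPM in both libraries, where 62.9% of protein-coding genes were, and 4 of these had 0 counts in both, where 30.7% were. The remaining gene, Mmp25, lay on either side of the threshold. With the older GENCODE M4 gene models 23 of the 37 genes were detected (34.7% of protein-coding genes), in the deposited alignment-free quantification 24 (41.5%), and with TPM rescaled to nuclear protein-coding genes 29 (49.7%). Prss57 was the azurophil gene among those 29. At least 10 expected counts in both libraries were found for 29 of 37 (51.6%), again with Prss57 as the azurophil gene, at least 0.1 TPM for 28 (49.2%) and at least 5 TPM for 18 (14.5%).

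**Figure D1:**
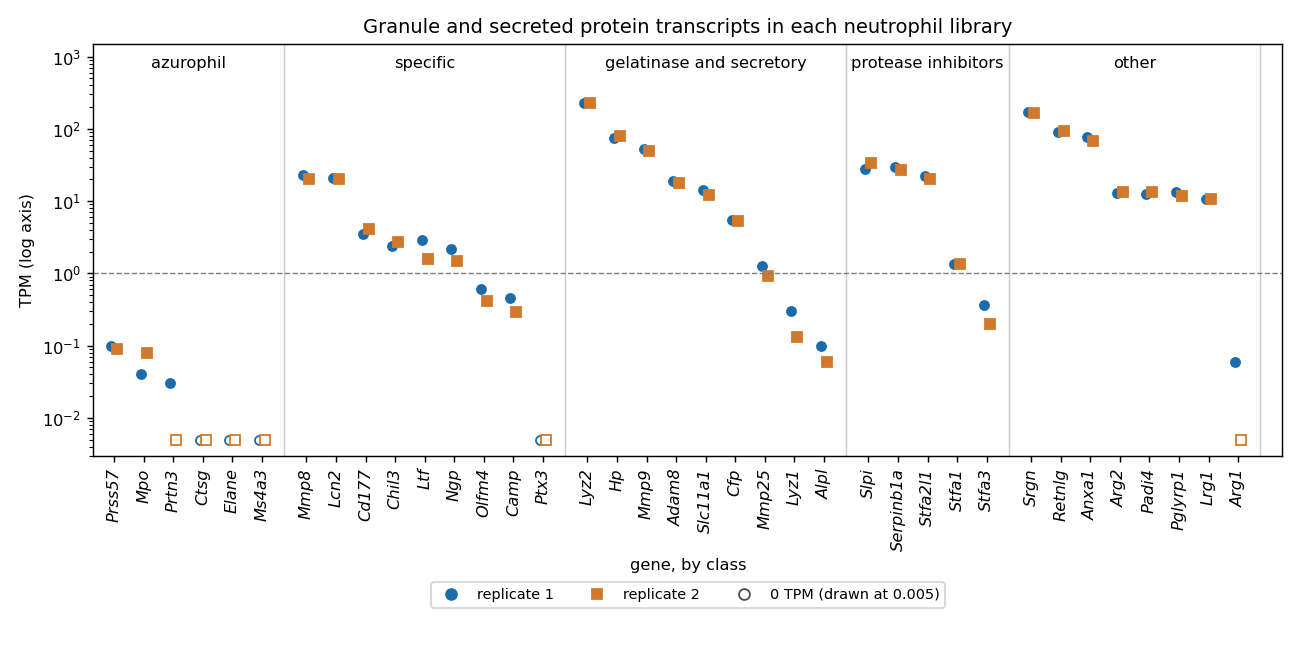
Level of each of the 37 genes (TPM, log axis) in replicate 1 (circles) and replicate 2 (squares), grouped by class and ordered by mean level; open symbols at the foot are values of 0 and the dashed line is 1 TPM. All 6 azurophil genes lie below the line, and Lyz2 and Srgn stand highest.

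The library totals were 22647028 and 21471719 expected counts, so 3 counts corresponded to 0.132 and 0.140 CPM (counts scaled to a library total in the same way). Protein-coding genes took 72.6% and 71.5% of counts but 8.81% and 8.35% of TPM, so TPM values here are low for all coding genes, and the 37 genes together held 1.06% ± 0.0227 of the protein-coding TPM. Neutrophil markers were all detected (10 of 10, summed TPM 2409 and 2438), one of them, Mmp9, being a gene of the set. S100a9, S100a8 and Csf3r were highest, at means of 1199, 749 and 254 TPM. Ly6g, the usual surface marker, stood at only 1.91 and 2.29 TPM. Markers of other cells were present too. B cell markers were detected 8 of 8, with Ighm (immunoglobulin mu), Ighd and Cd79b highest at means of 276, 82 and 77.1 TPM and a summed level of 629 and 573. Their median, 49.3 and 46.3 TPM, was close to that of the neutrophil markers, 50 and 49.9. The larger neutrophil sum thus rests on its highest genes. Monocyte and macrophage markers were detected 8 of 10 (summed TPM 39.1 and 36.8; C1qa was at 0), T and NK cell markers 5 of 8 (24.2 and 24.1), red cell markers 5 of 6 (4328 and 4263), platelet markers 5 of 6 (24.7 and 24.7), and eosinophil, basophil and mast cell markers 1 of 8 (3.76 and 4.23; Epx was at 0). Progenitor and dividing-cell markers were detected 0 of 6 (summed TPM 1.94 and 1.75), although Myb had 264 and 234 counts. The part of these other cells in the level of any granule gene was not tested.

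Azurophil genes came out at or near zero. Elane (neutrophil elastase, chr10:79886247-79888215) and Ctsg (cathepsin G) had 0 counts in both libraries, and for Elane 3 counts would have been 0.0375 and 0.037 TPM. Ms4a3, a membrane protein of granulocyte precursors that was grouped here with the azurophil genes, also had 0 counts in both. Prtn3 (proteinase 3) had 2 counts in replicate 1 and 0 in replicate 2. Mpo (myeloperoxidase, which makes hypochlorous acid, chr11:87793581-87804413) had 2 and 4 counts, or 0.04 and 0.08 TPM. The highest of the class was Prss57 (a serine protease of azurophil granules), with 13 and 18 counts and 0.10 and 0.09 TPM. Prss57 overlaps Fstl3 on the opposite strand, and 39.3% of its distinct 31-base words occur in Fstl3 when both strands are read. Whether the counting kept the strands apart is not stated, so its few reads could not be assigned with certainty. The precursor markers, Kit, Cd34, Flt3, Myb, Mki67 and Top2a, were also under 1 TPM in both libraries, but most had more reads. Myb had 264 and 234 counts (0.93 and 0.86 TPM), Mki67 180 and 217, and Top2a 121 and 154. Flt3 had 63 and 55, Kit 33 and 21, and Cd34 7 and 9.

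The quantification mattered for these few reads. The alignment-free table gave Mpo 34 and 31 counts, all on transcript Mpo-203, whereas the table built from aligned reads put its 2 and 4 counts on the short Mpo-205. It also gave Ms4a3 13 and 12.6 counts, of which 13 and 8.6 lay on the retained-intron transcript Ms4a3-203. Elane had 1 count and no count there, and Ctsg none and 5. The class therefore remained under 1 TPM in that table as well, led by Prss57 at 0.34 TPM in replicate 1 and by Mpo at 0.173 TPM in replicate 2.

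Elane and Prtn3 are neighbouring genes on chromosome 10. The sequences just upstream of them are shown because both hold the core motif of the myeloid factor PU.1. That motif occurs in the 250 bases before the start of 23.3% of all promoters. Each window is 81 bases, from 150 to 70 bases before the RefSeq start, GRCm38.p6, 5′ to 3′ on the plus strand, at chr10:79886162-79886242 for Elane and chr10:79879517-79879597 for Prtn3. The Prtn3 window precedes the coding transcript but lies inside the GENCODE gene (chr10:79874476-79883174), whose non-coding transcript Prtn3-202 starts further upstream, and it overlaps no GENCODE exon. Capitals mark the PU.1 core motif GAGGAA.
Elane: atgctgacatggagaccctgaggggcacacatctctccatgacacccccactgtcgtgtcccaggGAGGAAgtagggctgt
Prtn3: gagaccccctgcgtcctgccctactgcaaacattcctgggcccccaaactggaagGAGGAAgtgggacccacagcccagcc
Spi1, which encodes PU.1, was at 33.35 and 31.69 TPM. Which cells of the sample carried it, and whether the motif bears on the levels of Elane and Prtn3, was not tested.

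Motifs were counted in the 250 bases before the start of 33 RefSeq promoters belonging to 31 of the 37 genes, on both strands. The PU.1 core GAGGAA occurred in 16 of 33, or 48.5%, against 23.3% of all 32851 promoters. The C/EBP consensus TTNNGNAA occurred in 19, or 57.6%, against 36.8%, and the RUNX core TGTGGT in 6, or 18.2%, against 14.0%. Divided by detection, the C/EBP letters were in 15 of 20 promoters of detected genes and 4 of 13 of the others. The PU.1 letters were in 9 of 20 and 7 of 13, and the RUNX letters in 4 of 20 and 2 of 13. A match of letters is no measure of binding, and no difference between these shares was tested.

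The specific granule genes ranged from strong to absent. Mmp8 (neutrophil collagenase, chr9:7558456-7568485) stood at 22.92 and 20.28 TPM. Lcn2 (lipocalin 2, which binds bacterial siderophores and so withholds iron) stood at 21.16 and 20.55 TPM. These were the class leaders, and their ranges over the libraries overlapped. Below them came Cd177 (a surface glycoprotein stored in granules) at 3.50 and 4.10 TPM, Chil3 (a chitinase-like lectin) at 2.36 and 2.76, and Ngp (neutrophilic granule protein) at 2.20 and 1.46. Chil3 shares 41.5% of its 31-base words with other genes, 28.9% with Chil4 alone, so its reads could be divided between copies.

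The other 3 of the class, apart from Ltf, were Camp, Olfm4 and Ptx3. Camp, the precursor of the cathelicidin antimicrobial peptide, had 26 and 17 counts (0.45 and 0.29 TPM). Olfm4, an olfactomedin carried by a subset of neutrophils, had 156 and 109 counts (0.61 and 0.42 TPM). Ptx3, a soluble pattern recognition molecule, had 0 counts in both libraries. All 3 lay under 1 TPM in both libraries.

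Ltf (lactoferrin, an iron-binding protein, chr9:111019271-111042767) is a case where level and count disagreed. Its TPM was 2.86 in replicate 1 and 1.58 in replicate 2, a ratio of 0.55, but its counts were 324 and 334, a CPM ratio of 1.09 with a 95% exact interval of 0.93 to 1.27. The deposited TPM interval was 2.63 to 4.55 in replicate 1 and 1.81 to 2.87 in replicate 2. In replicate 2 the point estimate thus lay below its interval, so this level was poorly determined. The effective length used for the gene was 1.86 times as long in replicate 2. In replicate 1 the estimate placed 37.30% of the gene's TPM on the full-length coding transcript Ltf-201, 25.44% on the nonsense-mediated decay transcript Ltf-207, 22.36% on Ltf-211 and 14.90% on the retained-intron Ltf-206. In replicate 2 the corresponding shares were 79.74% for Ltf-201, 3.71% for Ltf-207 and 3.47% for Ltf-206. The TPM of Ltf-201 alone was 1.07 and 1.26, and under the M4 models the gene stood at 1.28 and 1.29 TPM. Few reads on short transcripts carried the difference, since Ltf-207 had 34.03 expected counts in replicate 1 and 2.79 in replicate 2.

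The genes grouped here as gelatinase and secretory included the highest of the whole set. Lyz2 (lysozyme M, which cleaves bacterial peptidoglycan) stood at 226.56 and 225.42 TPM, at the 99.9th percentile of protein-coding genes. It held 24.8% ± 0.327 of the TPM of all 37 genes. Hp (haptoglobin, which binds free haemoglobin) stood at 75.05 and 78.77 TPM, and Mmp9 (gelatinase B, which degrades collagen IV) at 53.47 and 49.74. Adam8, a membrane metalloprotease, was at 19.26 and 17.66 TPM, and Slc11a1, the divalent metal transporter NRAMP1, at 14.11 and 12.04. Cfp (properdin, which stabilises the alternative complement convertase) was at 5.53 and 5.39. Lyz2 is also transcribed by monocytes, whose markers were present as given above.

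The low members of this class were Mmp25, Lyz1 and Alpl. Mmp25 (leukolysin, a membrane-anchored metalloproteinase) had 543 and 397 counts and 1.28 and 0.93 TPM. Alpl (tissue-nonspecific alkaline phosphatase, a classical secretory vesicle marker) had 22 and 13 counts and 0.10 and 0.06 TPM. The deposited interval for Alpl reached 2.17 and 1.85 TPM, and its lower bounds of 0.158 and 0.127 lay above the point estimates, so its level was poorly determined. Lyz1, the second lysozyme gene, had 32.07 and 14.06 expected counts and 0.30 and 0.13 TPM.

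The lysozyme genes are adjacent and on the same strand, Lyz2 at chr10:117277331-117282321 and Lyz1 at chr10:117287797-117292868 on the minus strand of GRCm38, with 5475 bases between them. Their levels differed 755-fold in replicate 1 and 1734-fold in replicate 2, a ratio that rests on the few Lyz1 reads. Their coding sequences are shown because reads must be told apart by the bases at which they differ. The first 300 of 447 coding bases follow, 5′ to 3′ on the coding strand, with capitals at the differing bases.
Lyz2: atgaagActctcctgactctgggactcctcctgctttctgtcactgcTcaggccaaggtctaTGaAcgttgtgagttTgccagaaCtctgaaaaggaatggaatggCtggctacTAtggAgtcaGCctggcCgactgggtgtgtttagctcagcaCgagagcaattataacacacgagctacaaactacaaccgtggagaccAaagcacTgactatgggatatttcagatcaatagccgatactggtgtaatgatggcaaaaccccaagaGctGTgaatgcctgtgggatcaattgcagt
Lyz1: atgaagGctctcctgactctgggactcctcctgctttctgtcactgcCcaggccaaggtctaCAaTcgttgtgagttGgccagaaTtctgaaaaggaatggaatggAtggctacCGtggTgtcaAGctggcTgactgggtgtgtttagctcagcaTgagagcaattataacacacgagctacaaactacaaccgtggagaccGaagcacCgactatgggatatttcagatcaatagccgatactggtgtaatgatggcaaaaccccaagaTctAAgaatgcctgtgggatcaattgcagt
In these 300 bases 20 differed, and over all 447 there were 22, an identity of 95.1%. The longest identical run was 118 bases. Of the distinct 31-base words of the transcripts, 34.2% for Lyz1 and 32.8% for Lyz2 occurred in the other gene, and for 75-base words 6.2% and 6.0%. The alignment-free table gave Lyz1 44.6 and 25.3 counts and Lyz2 28749.4 and 28714.7, a TPM ratio of 615 and 1082. The M4 table gave 798 and 1831. The lowest ratio over these tables was thus 615, and how many of the Lyz1 reads came from Lyz2 was not tested.

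The upstream regions of these lysozyme genes are close copies as well. The window from 130 to 50 bases before the RefSeq start (81 bases, GRCm38.p6, 5′ to 3′ on the gene's strand) lies at chr10:117282322-117282402 for Lyz2 and chr10:117292918-117292998 for Lyz1, with capitals where they differ.
Lyz2: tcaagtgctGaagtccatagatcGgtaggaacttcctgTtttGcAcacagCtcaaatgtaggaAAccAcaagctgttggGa
Lyz1: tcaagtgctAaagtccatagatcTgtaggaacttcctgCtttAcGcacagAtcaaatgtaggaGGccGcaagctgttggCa
Between them 10 bases differed, an identity of 87.7%, and the 50 bases nearest the RefSeq start were identical. By GENCODE the Lyz2 gene begins directly after its window, at chr10:117282321. The Lyz2 bases between the window and the RefSeq start therefore lie inside the GENCODE gene. Among the motifs counted above, Lyz2 holds the RUNX core at -66 to -61 from the RefSeq start, on the opposite strand. It holds the C/EBP consensus at -55 to -48, which runs past the end of the window and into the GENCODE gene. Lyz1 holds neither there, and its one C/EBP match lies at -209 to -202. Whether these letters bear on the levels was not tested.

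Of the 5 protease inhibitors, 4 were detected. Slpi (secretory leukocyte protease inhibitor, which blocks elastase and cathepsin G) stood at 28.07 and 33.40 TPM. Serpinb1a (a cytosolic serpin that inhibits the azurophil serine proteases) stood at 29.77 and 26.88. Both are inhibitors of proteases whose own transcripts, Elane and Ctsg, had 0 counts. For Serpinb1a, the short non-coding transcript Serpinb1a-204 held 41.66% and 37.20% of the TPM, and under the M4 models the gene stood at 18.8 and 18.4 TPM.

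The stefins, inhibitors of cysteine cathepsins encoded in a cluster on chromosome 16, spanned a wide range. Stfa2l1 was at 21.96 and 20.13 TPM, Stfa1 at 1.34 and 1.33, and Stfa3 at 0.37 and 0.20. Stfa2l1 was 16.4 and 15.1 times the level of Stfa1, and under the M4 models 9.55 and 9.05 times. Stfa1 shares 43.8% of its 31-base words with other genes (39.0% with BC100530) and Stfa2l1 41.6% (29.3% with Stfa2), so their levels are uncertain, while Stfa3 shares none. The Stfa2l1 and Stfa3 coding sequences, 312 bases each, differed at 57 bases (81.7% identity).

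Among the other genes, Srgn (serglycin, the proteoglycan that holds proteases in granules, chr10:62493833-62527451) stood at 173.02 and 167.17 TPM. Retnlg (a resistin-like secreted protein) was at 89.87 and 93.77, and Anxa1 (annexin A1, an anti-inflammatory phospholipid-binding protein) at 76.24 and 66.99. Lyz2, Srgn and Retnlg together held 53.5% ± 0.658 of the TPM of the set, and the highest 8 genes 82.0% ± 0.605. Arg2 (mitochondrial arginase) was at 13 and 13.42 TPM, Padi4 (the peptidylarginine deiminase of chromatin release) at 12.71 and 13.19, Pglyrp1 (a peptidoglycan recognition protein) at 13.26 and 11.92 and Lrg1 (a leucine-rich glycoprotein) at 10.84 and 10.64. Arg1, the cytosolic arginase, had 4 and 0 counts, and Arg2 was 217 times Arg1 by TPM in replicate 1. Arg2 overlaps Vti1b on the opposite strand, and 18.2% of its 31-base words occur in that gene when both strands are read.

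Ordered by mean TPM with the GENCODE M21 gene models, the genes fell into steps. Lyz2, Srgn and Retnlg each stood apart from the gene below. Hp and Anxa1 overlapped over the libraries, then came Mmp9, then Slpi with Serpinb1a, then Mmp8 with Stfa2l1 and Lcn2, then Adam8. Arg2, Slc11a1, Padi4 and Pglyrp1 formed a run in which each neighbour overlapped the next. Lrg1, Cfp and Cd177 followed as separate steps, and Chil3, Ltf and Ngp overlapped. Below 1 TPM, Olfm4, Camp, Stfa3 and Lyz1 overlapped in turn. Some steps changed with the quantification. Alignment-free, Stfa2l1 at 51 and 39.2 TPM overlapped Slpi at 43.8 and 46.4. Under the M4 models Serpinb1a, at 18.8 and 18.4 TPM, lay below Lcn2 at 21.4 and 20.8.

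Differences between the libraries were small. A gene was counted as different at a 2-fold or larger change in TPM + 1, with 1 TPM in either library and 50 counts in the higher. None of the 24 genes that passed the filter was higher in replicate 2, against 0.0368% of 8148 protein-coding genes, and none was lower, against 0.123%. With a fold of 1.5 the count was also 0, where 38 protein-coding genes were higher and 93 lower. By exact 95% intervals of the CPM ratio, which cover counting error only, 8 of 31 genes with counts in both libraries were above 1 in replicate 2 over replicate 1, against 15.5% of protein-coding genes, and 6 were below, against 20.6%. The median CPM ratio was 1.02 for these genes and 0.99 for protein-coding genes. Such intervals narrow as counts rise. The set and the protein-coding genes were not matched for counts, so their shares of intervals are not directly comparable.

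The genes whose intervals left out 1 ran from Lyz1, under 1 TPM, to Lyz2. Slpi had 1665 and 2022 counts, a CPM ratio of 1.28 (1.20 to 1.37). Cd177 had 872 and 1031 counts, a ratio of 1.25 (1.14 to 1.37), and Chil3 had 317 and 374, a ratio of 1.24 (1.07 to 1.45). On the lower side, Slc11a1 had 2043 and 1817 counts, a ratio of 0.94 with an interval whose upper bound of 1.00 lay just under 1 before rounding. Ngp had 227 and 153 counts (0.71, 0.58 to 0.88), Olfm4 had a ratio of 0.74 (0.57 to 0.95) and Mmp25 of 0.77 (0.68 to 0.88). Lyz1 was lowest at 0.46 (0.23 to 0.89). Mmp8 had a ratio of 0.94 (0.90 to 0.98). These intervals leave out the spread between libraries, and no gene of the set passed the fold rule. Lyz1 and Olfm4, under 1 TPM in both libraries, could not have passed it. Over the same libraries the summed B cell markers went from 629 to 573 TPM and the summed neutrophil markers from 2409 to 2438. The neutrophil sum rose mainly through S100a9, from 1123.48 to 1274.62 TPM. Most of the other neutrophil markers were lower in replicate 2, among them S100a8 (785.62 to 712.03) and Csf3r (272.78 to 234.53). The median of the neutrophil markers was 50 and 49.9 TPM.

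**Figure D2:**
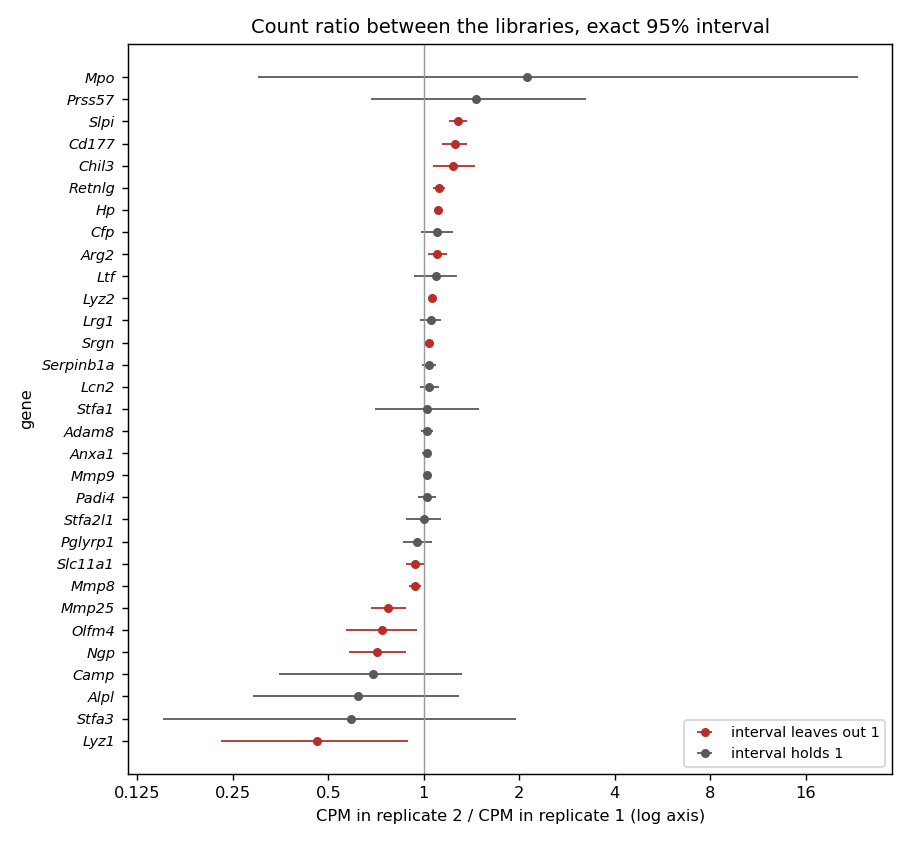
Ratio of CPM in replicate 2 to replicate 1 (log axis) for the 31 genes with counts in both libraries, with exact 95% intervals for counting error; red marks intervals that leave out 1. Slpi, Cd177 and Chil3 lie highest among the red points and Lyz1 lowest, and the widest intervals belong to genes with few counts such as Mpo.

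Transcript forms differed among the detected genes. Of these, 16 have several annotated transcripts, and a median of 82.7% of their TPM lay on coding transcripts, against 72.1% for 7200 detected protein-coding genes with several transcripts. Retained-intron transcripts held a median of 0.0% and 14.2% respectively. Coding transcripts held under 50% of the TPM, as a mean of the libraries, for 2 genes of the set and for 24.6% of the protein-coding genes. These were Slc11a1 (33.1% and 32.6%) and Anxa1 (23.4% and 38.7%). Retained-intron forms held more than 25% for 2 genes, Slc11a1 and Adam8, and for 34.8% of protein-coding genes.

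In Slc11a1 the retained-intron share was 47.9% and 48.3%. In Adam8 it was 51.0% and 42.2%, with coding shares of 49.0% and 57.5%. In Anxa1 the processed transcript Anxa1-203 led with 34.85% in replicate 1 (28.11% in replicate 2), and the nonsense-mediated decay transcript Anxa1-207 held 34.72% and 27.73%. In replicate 2 the coding Anxa1-208 led with 31.35%. By counts rather than TPM, Anxa1-203, which is 652 bases long, had 1264.0 and 912.57, and Anxa1-208, 1622 bases long, had 2061.41 and 3020.73. For total RNA, an unspliced precursor read and a retained intron are not separated by these tables.

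**Figure D3:**
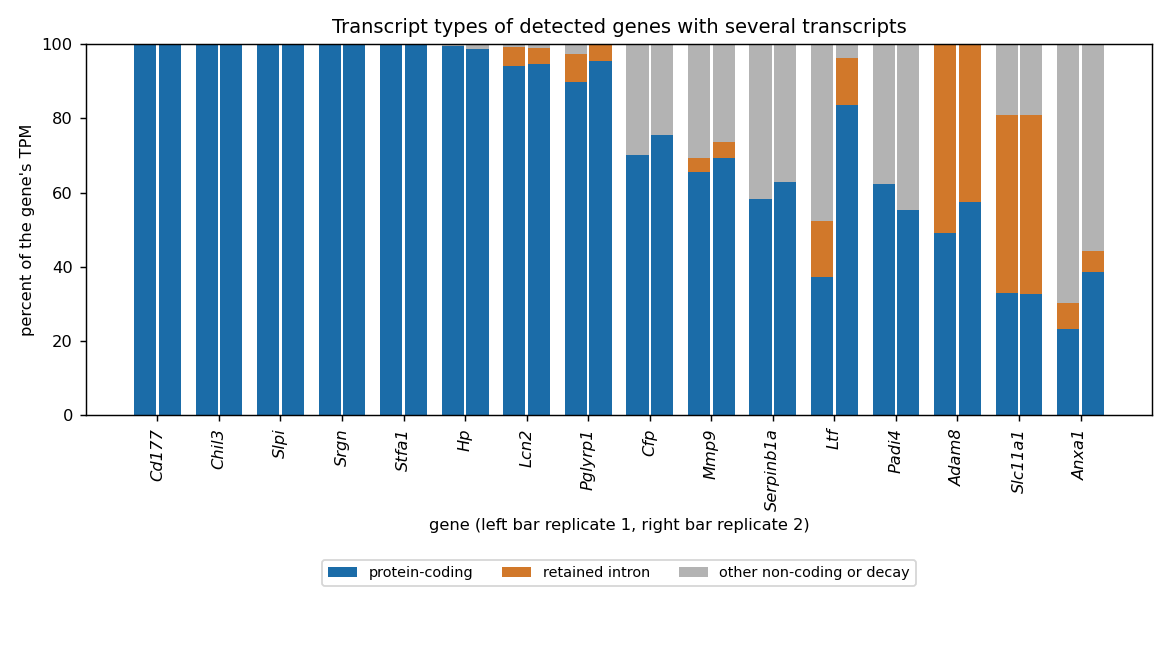
Percent of each gene's TPM on protein-coding (blue), retained-intron (orange) and other non-coding or decay transcripts (grey) for the 16 detected genes with several transcripts, replicate 1 left and replicate 2 right. Slc11a1 and Anxa1 have the lowest coding shares, and the bars of Ltf differ most between the libraries.

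Gene levels depended little on the quantification in rank, but some counts moved. Across the 37 genes, mean TPM in the table of aligned reads and in the alignment-free table had a Spearman correlation of 0.989, and those of the M4 table one of 0.996. These tables share the same reads, and the values are a description. The alignment-free table gave a median of 1.23 times the counts over 29 genes (1.09 to 2.26), where 11354 protein-coding genes had a median of 1.30 and a 90th percentile of 1.70. Only Pglyrp1, at 2.26, and Stfa2l1, at 1.73, lay above that percentile. Pglyrp1 had 712 and 644 counts in the table of aligned reads and 1518.1 and 1547.0 in the alignment-free table, and its TPM there was 36.8 and 36.3 in place of 13.26 and 11.92, so its level depends on the table used. Of its 31-base words 6.5% occur in other genes.

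**Figure D4:**
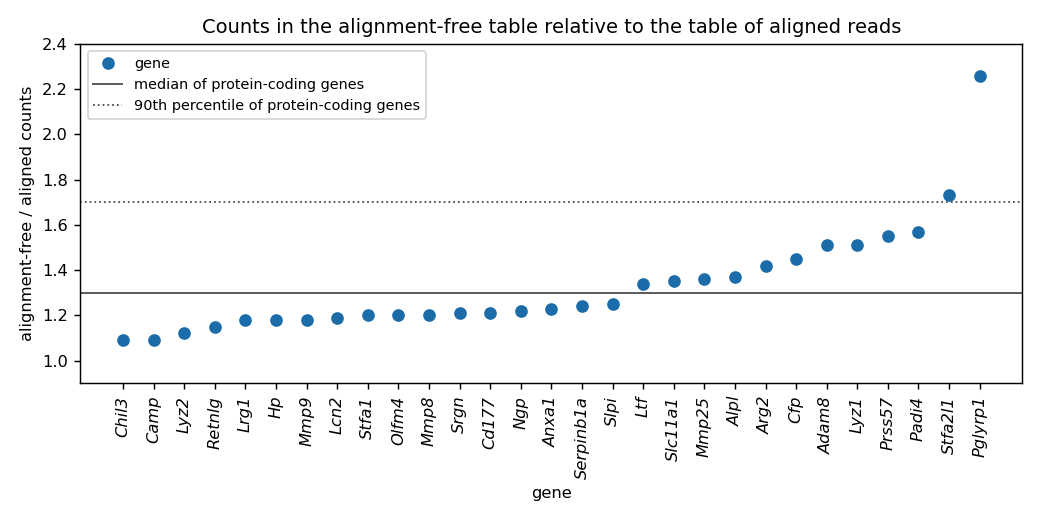
Ratio of the alignment-free count to the count from aligned reads for the 29 genes with at least 10 counts in both libraries, in ascending order; the solid line is the median of protein-coding genes (1.30) and the dotted line their 90th percentile (1.70). Stfa2l1 and Pglyrp1 lie above the dotted line.

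The machinery around the granules was expressed in part. For comparison with these lists, 34.9% of nuclear protein-coding genes were detected. Of 8 regulators of granule genes, 4 were detected, close to that share for so short a list. Spi1 (PU.1) was at 32.5 ± 1.17 TPM, Cebpb at 14.4 ± 0.799 and Cebpd at 10.1 ± 0.12. The regulators under 1 TPM in both libraries were Cebpa (mean 0.615), Cebpe (0.765, the factor required for specific granules), Gfi1 (0.12) and Klf5 (0.40). Of 17 genes for sorting and exocytosis of granules, 13 were detected, led by Snap23 (a fusion protein of the plasma membrane) at 53.5 ± 0.544, Lyst (mutated in the beige mouse, which has giant granules) at 38.0 ± 2.54 and Stxbp2 (a syntaxin-binding protein) at 23.8 and 18.2. Rab27b, Vamp7, Stx3 and Sytl1 were under 1 TPM, while Rab27a, the small GTPase of granule docking, was at 13.29 and 12.22. The part of other cells in these levels, and in those of the next list, was not tested.

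Of 14 further granule and vesicle proteins outside the set, 12 were detected, against 34.9% of nuclear protein-coding genes. Itgb2 and Itgam, the subunits of the integrin Mac-1 stored in secondary and secretory compartments, were at 38.7 ± 0.198 and 28.7 ± 1.54 TPM, and Ctsd, a lysosomal aspartic protease, at 35.7 ± 0.919. Bpi (an azurophil bactericidal protein) had 0 counts and Fcnb (ficolin B) a mean of 0.01 TPM. Ctsc, the protease that activates the azurophil serine proteases, was at 13 and 11.89 TPM, although Elane, Prtn3 and Ctsg were nearly or wholly without reads.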

How the data were processed

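Total RNA from mouse blood neutrophils was sequenced as 2 libraries (100 ng of RNA, fragments in a size range of 200 to 1000, per the labels). Tables used were, per the file headers and the deposited file lists, gene and transcript tables on mm10 (GRCm38) with GENCODE M21 and gene tables with M4, made from transcriptome alignments, and alignment-free transcript tables. The deposited files hold expected counts, which are estimated counts per gene or transcript, TPM, interval bounds of TPM and each transcript's percent of its gene. Programs and versions: not given in the sources used here. M4 transcript tables were not used here.

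Levels are the TPM values the authors deposited in the M21 gene table. Alignment-free transcripts were summed per gene. CPM is a count scaled by its library's total. Class medians are of log2(TPM + 1). Count ratios, from counts rounded to whole numbers, carry exact conditional binomial (Clopper-Pearson) 95% intervals, which cover counting error only; 3 counts are the limit that a count of 0 allows. Transcript words and coding sequences come from GENCODE M21, promoters from RefSeq (GRCm38.p6, 31 of 37 genes matched). Words were matched on both strands, and the strandedness of the counting is not stated in the sources used here. With 1 group of 2 libraries no test was run. Alternatives were the M4 and alignment-free tables, TPM rescaled over protein-coding genes, other thresholds and pseudocounts, edgeR TMM and DESeq2 factors, and each library alone. The scripts were tested on simulated data.

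The rule for named genes took all 37, allowed from each related or marker list the 3 highest by mean TPM and those under 1 TPM in both libraries, and other genes only where a result turned on them. Genes outside this rule, Ly6g, Rab27a and Ctsc, were chosen after their values were seen. The genes, classes and lists were chosen with earlier results of these data known. Tools were Python 3.11.15, numpy 2.4.6, pandas 2.3.3, scipy 1.17.1, matplotlib 3.10.9, R 4.3.3, edgeR 4.0.16 and DESeq2 1.42.0.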

Additional observations from a re-analysis of the deposited data

How the results depend on the processing

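The count of 23 detected genes was 23 with M4 models, 24 alignment-free, 29 with rescaled TPM, 28 at 0.1 TPM, 18 at 5 TPM, 29 at 10 counts and 23 to 24 with either library alone. Protein-coding genes passed those rules in 34.7%, 41.5%, 49.7%, 49.2%, 14.5% and 51.6% of cases for the first 6. The azurophil class stayed lowest in every setting run. Its median was -3.23 with a pseudocount of 0.1, 0.14 alignment-free and 0.11 rescaled, and it has no value among genes detected at 1 TPM because none was left. Prss57 counts as detected with rescaled TPM and at 10 counts. The specific median was 1.02, 2.04 and 4.56 under those settings and 2.09 among detected genes. The gelatinase and secretory median was 4.86 alignment-free, 7.26 rescaled and 5.00 among detected genes. The inhibitor median was 4.29 with M4, 5.41 alignment-free, 7.94 rescaled and 4.65 among detected genes, and that of the others 3.74, 4.96 and 7.28 with a pseudocount of 0.1, alignment-free and rescaled. Specific minus azurophil was 4.25, 1.90 and 4.45 in those settings, and gelatinase minus specific 2.69, 2.82 and 2.70, and 2.90 among detected genes. With either library alone the medians ran from 0.00 to 0.02, 1.37 to 1.75, 3.70 to 3.92, 4.40 to 4.52 and 3.82 to 3.84, and the differences from 1.37 to 1.73 and 2.17 to 2.34. The share of protein-coding TPM was 1.15% with M4, 0.905% alignment-free and 1.05% to 1.08% with either library. No gene of the set passed the 2-fold rule in any setting. With the M21 TPM values, the 13 genes under 1 TPM in both libraries could not have passed, because of the filter or the pseudocount. No paired analysis was possible because there is a single group. Rescaling multiplied TPM by 11.3 and 12. For the other settings the cause was not tested. Most values under 1 TPM in the set rest on few reads, while Olfm4 had 156 and 109 counts.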
